A study of Mus musculus with 8 samples.

Results

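NRF2, encoded by Nfe2l2, its inhibitor KEAP1, the stress-responsive gene Osgin1 and a set of antioxidant and glutathione genes were examined in mouse liver 1 h after the FXR agonist GW4064. The members were taken by gene symbol and are Nfe2l2, Keap1, Osgin1, Nqo1, Gclc, Gclm, Hmox1, Srxn1, Txnrd1 and Slc7a11. All 10 were found, among 25124 rows of the expression table, with 1 row per symbol. The clearest change was in Osgin1, which was 5.5-fold higher in GW4064-treated livers by RNA-seq. The glutathione synthesis genes moved in opposite directions, with Gclm higher and Gclc lower. No difference passed the test for Nfe2l2, Keap1, Nqo1, Hmox1, Srxn1 or Txnrd1, and Slc7a11 was close to undetected.

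Livers were analysed by 2 assays. In RNA-seq, C57BL/6 WT mice were fasted overnight and were studied 1 h after a single dose of GW4064 (30 mg/kg) or of vehicle, and 2 libraries per treatment each held liver RNA pooled from 2 mice. In GRO-seq, which sequences RNA made by engaged polymerases during a run-on in isolated nuclei, the table holds 1 library for each of FXR KO with GW4064, FXR KO with vehicle, WT with GW4064 and WT with vehicle, in C57BL/6 mice with the same treatment time. The GRO-seq experiment was outlined with n = 2 per group, and whether its libraries pool mice is not given in the sources used here. The labels call the vehicle DMSO, whereas the Materials and methods name corn oil. The Materials and methods describe the FXR-deficient animals as liver-specific knockouts, made by crossing Fxr-Flox mice with Albumin-Cre mice, so liver cells that do not express albumin keep FXR. The outline of the GRO-seq experiment names Fxr-Flox mice beside these knockouts, where the labels say WT. The p-values measure the spread between libraries of pooled RNA, and with 1 GRO-seq library per group, genotype and library cannot be told apart.

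NRF2 is a transcription factor that is kept low in resting cells because KEAP1 hands it to a ubiquitin ligase. Oxidants and electrophiles modify KEAP1, NRF2 accumulates, and it binds antioxidant response elements as a heterodimer with a small MAF protein. Its classical targets supply glutathione, reduce quinones, break down heme and feed the thioredoxin system. In liver these genes protect hepatocytes that handle bile acids, drugs and fatty acids. FXR, encoded by Nr1h4, is the nuclear receptor for bile acids and typically binds inverted repeats of a hexamer spaced by a single base (IR1).

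Sequences just upstream of the row starts are shown for Osgin1 and Gclm, the members called higher, and for Nfe2l2, the regulator. They are the 250 bases before each start in RefSeq on GRCm38.p6, the assembly of mm10, read 5′ to 3′ on the strand of the gene. Capitals mark matches on either strand to the antioxidant response element core TGACNNNGC with no mismatch, or to the IR1 letters GGTCANTGACC with at most 2 mismatches. The Osgin1 window is chr8:119436897-119437146 on the plus strand, the Gclm window is chr3:122245307-122245556 on the plus strand, and the Nfe2l2 window is chr2:75704664-75704913 on the minus strand.
Osgin1: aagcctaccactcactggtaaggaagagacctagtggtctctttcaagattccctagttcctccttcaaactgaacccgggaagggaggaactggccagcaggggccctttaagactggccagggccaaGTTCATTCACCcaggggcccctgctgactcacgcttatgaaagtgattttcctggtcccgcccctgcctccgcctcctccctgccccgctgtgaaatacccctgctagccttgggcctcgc
Gclm: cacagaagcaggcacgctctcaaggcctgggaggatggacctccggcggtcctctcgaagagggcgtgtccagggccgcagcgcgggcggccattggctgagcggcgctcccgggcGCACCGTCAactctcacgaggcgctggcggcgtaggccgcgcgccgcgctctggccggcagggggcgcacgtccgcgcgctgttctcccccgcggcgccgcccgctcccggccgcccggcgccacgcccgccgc
Nfe2l2: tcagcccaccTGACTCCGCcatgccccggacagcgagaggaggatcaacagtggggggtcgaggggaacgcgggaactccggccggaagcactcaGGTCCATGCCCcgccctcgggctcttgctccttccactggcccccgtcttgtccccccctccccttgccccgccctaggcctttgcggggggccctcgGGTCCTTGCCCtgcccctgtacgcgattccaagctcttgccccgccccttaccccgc

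In the Osgin1 window the capitals are an IR1-like match (GTTCATTCACC) at -121 to -111 from the row start, with 2 mismatches, and the antioxidant response element core was not matched there. In the Gclm window they are a core match on the opposite strand (TGACGGTGC) at -134 to -126. The Nfe2l2 window held a core match (TGACTCCGC) at -240 to -232 and 2 IR1-like matches, each with 2 mismatches. Upstream windows were matched for 8 of the 10 members, 10 windows in all because Txnrd1 has 3, and Gclc and Hmox1 had no entry. The core letters were found in 3 of these 10 windows, the other being 1 of Txnrd1 (TGACAAAGC, opposite strand, -92 to -84 from an annotated start upstream of the row), and in 10.2% of the 32851 windows of this length in the table. IR1-like letters were found in 2 of the 10 windows and in 8.92% of all windows. These matches describe letters only, and binding was not measured.

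All values are RPKM, read numbers scaled to row length and library size, over the whole span of the row, introns included. Several rows cover only part of the GENCODE gene, among them those of Osgin1 (9.11 of 12.1 kb), Nfe2l2, Txnrd1 and Slc7a11 (78.7 of 551 kb). Introns made up 52.0% to 91.4% of the members' rows by the GENCODE transcript linked to the RefSeq entry of each row, so the RNA-seq values include unspliced RNA. Rebuilt library totals were 13924473 to 14047170 reads in RNA-seq. In GRO-seq they were 5069404 with GW4064 and 5141656 with vehicle in FXR KO, and 10593344 and 14173692 in WT. The classical FXR target Abcb11, the bile salt export pump, was at 1.58 RPKM with GW4064 against 1.204 RPKM with vehicle in FXR KO GRO-seq, and at 56.0 against 4.61 RPKM in WT. Nr0b2, which encodes SHP, was at 1.19 against 0.118 RPKM in FXR KO and 36.6 against 3.65 RPKM in WT. Nr1h4 itself was at 20.6 and 16.7 RPKM in the FXR KO libraries, with GW4064 and vehicle, and at 4.23 and 15.1 RPKM in WT. A value over the whole gene span does not check a deletion of part of the gene. Hepatocyte markers were present in every library, and their summed level was 313.7 and 358.9 RPKM in the GW4064 RNA-seq libraries and 339.5 and 344.9 RPKM in the DMSO ones. In GRO-seq it was 837.2 and 883.0 RPKM in FXR KO, with GW4064 and vehicle, and 561.0 and 503.2 RPKM in WT. The sum was thus higher in FXR KO with either treatment, although Tat with GW4064 was lower there (103.3 against 137.2 RPKM in WT). The part of these markers in the comparisons between genotypes was not tested.

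**Figure D1:**
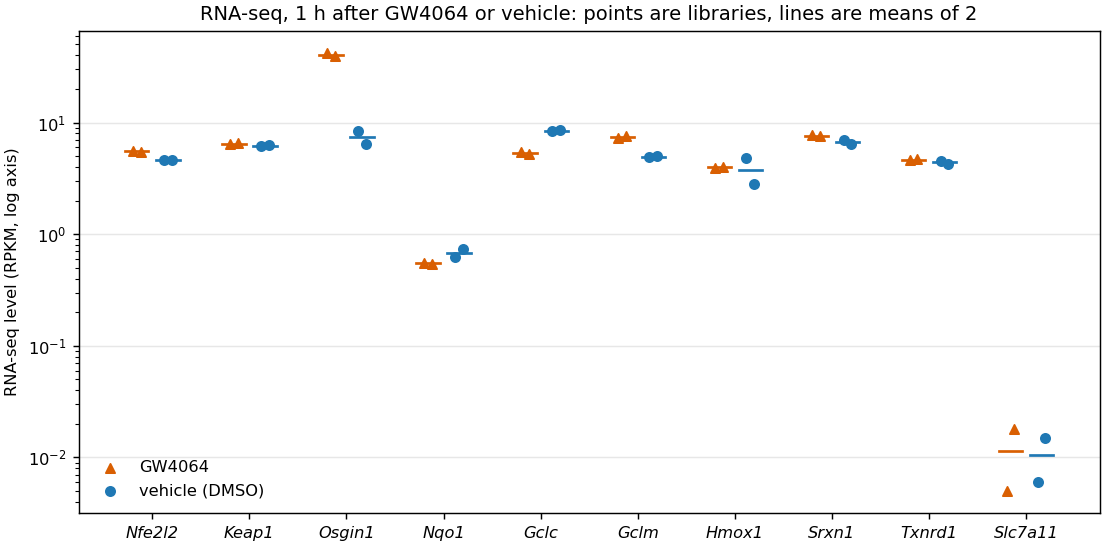
RNA-seq level of each member in RPKM on a log axis, with triangles for the 2 GW4064 libraries, circles for the 2 DMSO libraries and lines for their means. Osgin1 stands at 39.5 and 41.8 RPKM with GW4064 and at 6.39 and 8.36 RPKM with DMSO, Gclc lies lower with GW4064, and Slc7a11 lies at or below 0.018 RPKM in all 4 libraries.

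Osgin1, oxidative stress induced growth inhibitor 1, encodes a regulator of cell growth and death that responds to oxidative stress. Its row covers chr8:119437147-119446256 on the plus strand of mm10 and holds 6 exons. In RNA-seq it was at 41.8 and 39.5 RPKM in the GW4064 libraries, against 8.36 and 6.39 RPKM in the DMSO libraries. Both GW4064 libraries lay far above both DMSO libraries. The log2 fold change was 2.46 (standard error 0.15, 95% interval 2.04 to 2.88), with an adjusted p of 0.018 from limma, which ranked Osgin1 at place 61 of 11408 rows by p. Without filtering rows on low values the adjusted p was 0.084 (limma), and the log2 fold change was again 2.46. That was the highest adjusted p of 12 alternatives that kept all libraries, and the lowest was 0.00083 with limma-voom. With 1 library left out in turn, the log2 fold change lay between 2.27 and 2.65. The call was kept only without DMSO replicate 1, and most or all calls of the whole table were lost in each case.

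In GRO-seq, Osgin1 was at 15.2 RPKM with GW4064 and 6.47 RPKM with vehicle in FXR KO livers, and at 82.0 RPKM with GW4064 and 9.06 RPKM with vehicle in WT livers. Nascent Osgin1 RNA was thus higher with GW4064 in both genotypes, and by a larger factor in WT. The ratio of GW4064 to vehicle was 2.35 in FXR KO (log2 1.23, 95% counting interval 1.04 to 1.43, from 703 and 303 reads) and 9.04 in WT (log2 3.18, interval 3.09 to 3.27). These intervals cover counting error only and say nothing about variation between mice. Osgin1 was lower in FXR KO than in WT with either treatment, at a log2 ratio of -2.43 with GW4064 and -0.49 with vehicle. Necab2, which starts 463 bases downstream on the same strand, was at 0.097 and 0.171 RPKM with GW4064 against 0.014 and 0.019 RPKM with DMSO in RNA-seq. In GRO-seq Necab2 was at 0.023 against 0.030 RPKM in FXR KO and at 0.295 against 0.041 RPKM in WT, so this downstream row was higher with GW4064 in the same libraries of WT mice as Osgin1, and read-through was not tested. Osgin2, the paralog of Osgin1, stayed below the filter at 0.423 and 0.450 RPKM with GW4064 and 0.341 and 0.395 RPKM with DMSO.

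**Figure D2:**
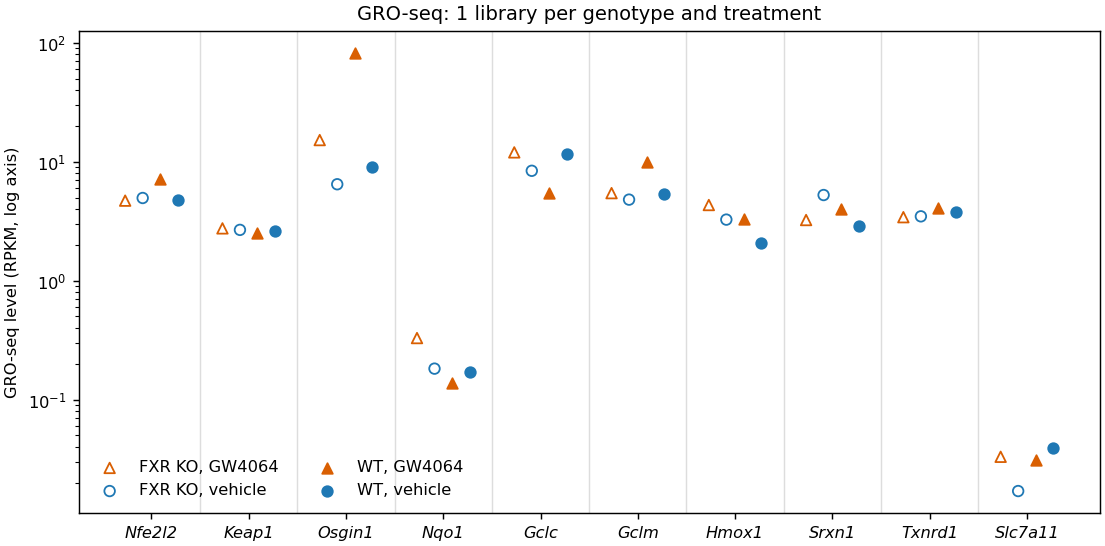
GRO-seq level of each member in RPKM on a log axis in 4 libraries, with open symbols for FXR KO, filled symbols for WT, triangles for GW4064 and circles for vehicle. Osgin1 in WT with GW4064 stands alone at 82.0 RPKM, and for Gclc the WT library with GW4064 is the lowest of the 4 at 5.5 RPKM.

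Nfe2l2, the gene of NRF2, was at 5.61 and 5.48 RPKM with GW4064, against 4.57 and 4.60 RPKM with DMSO. The GW4064 libraries were the higher pair and the groups did not overlap, but the difference did not pass the test. On the log2 scale it was 0.27 (standard error 0.05, 95% interval 0.12 to 0.41, adjusted p = 0.1 from limma). With limma-voom on the rebuilt reads the adjusted p was 0.04. The row of Nfe2l2 is annotated as a noncoding transcript with 2 exons and spans 13.6 kb of a 29.1 kb gene, on chromosome 2 from 75691052 to 75704663, so reads in the rest of the gene were not counted.

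In GRO-seq, Nfe2l2 was at 4.71 RPKM with GW4064 and 4.96 RPKM with vehicle in FXR KO, and at 7.16 and 4.76 RPKM in WT. The 3 libraries other than WT with GW4064 were alike. The ratio was 0.95 in FXR KO (log2 -0.07, counting interval -0.30 to 0.15) and 1.5 in WT (log2 0.59, interval 0.46 to 0.72), the WT ratio lying just past the 1.5-fold mark used for GRO-seq. Keap1 was at 6.40 and 6.49 RPKM with GW4064, against 6.13 and 6.29 RPKM with DMSO, and its log2 fold change of 0.05 had a 95% interval of -0.09 to 0.20. In GRO-seq Keap1 was at 2.75 and 2.67 RPKM in FXR KO, with GW4064 and vehicle, and at 2.51 and 2.59 RPKM in WT. Its log2 ratio was 0.04 in FXR KO (interval -0.32 to 0.40) and -0.05 in WT (interval -0.29 to 0.19), or 0.06 relative to the median of all rows in WT.

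Gclc and Gclm encode the catalytic and the modifier subunit of glutamate-cysteine ligase, the rate-limiting enzyme of glutathione synthesis. Gclc was at 5.47 and 5.21 RPKM with GW4064, against 8.33 and 8.62 RPKM with DMSO. Both GW4064 libraries were lower than both DMSO libraries, with a gap wider than the spread in either group. Gclc fell by 0.66 on the log2 scale (standard error 0.06, 95% interval -0.82 to -0.49, adjusted p = 0.027 from limma). Gclm was at 7.28 and 7.59 RPKM with GW4064, against 4.88 and 5.01 RPKM with DMSO, so here the GW4064 libraries were the higher pair. Gclm rose by 0.58 on the log2 scale (standard error 0.06, 95% interval 0.42 to 0.74, adjusted p = 0.031 from limma). RNA levels for the subunits of the same enzyme therefore changed in opposite directions, and protein was not measured. Both calls were lost without a filter on low values (adjusted p of 0.061 for Gclc and 0.057 for Gclm, limma). Over 12 alternatives that kept all libraries, the adjusted p was 0.0037 to 0.086 for Gclc and 0.0042 to 0.082 for Gclm. The lowest came from limma-voom and the highest from limma with a replicate block. Both calls were also lost when any 1 library was left out, as were most or all calls of the whole table. The log2 fold change then lay between -0.69 and -0.62 for Gclc and between 0.55 and 0.61 for Gclm.

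Nascent Gclc was at 11.99 RPKM with GW4064 and 8.40 RPKM with vehicle in FXR KO, and at 5.5 RPKM with GW4064 and 11.7 RPKM with vehicle in WT. It was higher with GW4064 in FXR KO and lower with GW4064 in WT. The log2 ratio was 0.51 in FXR KO (counting interval 0.42 to 0.60, ratio 1.43) and -1.08 in WT (interval -1.15 to -1.02, ratio 0.472), and with 1 library per group the difference between genotypes was not tested. With vehicle alone, Gclc was lower in FXR KO than in WT, at a log2 ratio of -0.47. Nascent Gclm was at 5.45 and 4.80 RPKM in FXR KO, with GW4064 and vehicle, and at 9.97 and 5.37 RPKM in WT. Only the WT library with GW4064 stood apart, with a log2 ratio of 0.89 in WT (interval 0.80 to 0.99) and 0.18 in FXR KO (interval 0.01 to 0.35). Slc7a11, which encodes the cystine carrier of system xc-, was at 0.005 and 0.018 RPKM with GW4064, against 0.006 and 0.015 RPKM with DMSO. In GRO-seq it was between 0.017 and 0.039 RPKM in the 4 libraries, from 7 to 43 reads, so no change could be measured at this depth.

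Hmox1, the inducible heme oxygenase, was at 3.91 and 4.02 RPKM with GW4064, against 4.78 and 2.81 RPKM with DMSO. It was the only tested member whose groups overlapped, since the DMSO libraries lay on either side of the GW4064 libraries. The log2 fold change was 0.11 with a 95% interval of -0.65 to 0.88 (limma), and it was 0.48 without DMSO replicate 1 and -0.26 without DMSO replicate 2. Hmox1 is also expressed by Kupffer cells, whose 8 markers summed to 21.3 and 21.3 RPKM with GW4064 and 21.5 and 20.1 RPKM with DMSO. In bulk liver, fewer cells of a type and less RNA per cell cannot be told apart.

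In GRO-seq Hmox1 was at 4.33 and 3.26 RPKM in FXR KO, with GW4064 and vehicle, and at 3.33 and 2.07 RPKM in WT. The GW4064 library was the higher one in both genotypes, at a log2 ratio of 0.41 in FXR KO (counting interval 0.05 to 0.77) and 0.68 in WT (interval 0.41 to 0.96). The Kupffer markers, 4 of 8 of which reached a mean of 0.5 RPKM in GRO-seq, summed to 7.07 RPKM with GW4064 and 9.20 RPKM with vehicle in FXR KO and to 8.21 and 6.89 RPKM in WT, and their part in the Hmox1 values was not tested. Nqo1, a quinone reductase and in many tissues a standard readout of NRF2, was at 0.556 and 0.544 RPKM with GW4064, against 0.623 and 0.741 RPKM with DMSO. The GW4064 libraries were the lower pair, at -0.26 on the log2 scale, which did not pass the test (95% interval -0.61 to 0.08, adjusted p = 0.33 from limma). The Nqo1 row lies wholly inside the row of Mir5098 on the opposite strand, so reads of this locus may not be separable. Nascent Nqo1 was counted in only 14 to 36 reads per library, at 0.329 and 0.182 RPKM in FXR KO and 0.139 and 0.170 RPKM in WT, below the filter.

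Srxn1, sulfiredoxin, repairs overoxidized peroxiredoxins. It was at 7.72 and 7.56 RPKM with GW4064, against 6.99 and 6.46 RPKM with DMSO, a difference of 0.18 on the log2 scale (95% interval -0.00 to 0.37, adjusted p = 0.24 from limma). The GW4064 libraries were the higher pair but the difference did not pass the test. Nascent Srxn1 was at 3.24 RPKM with GW4064 and 5.25 RPKM with vehicle in FXR KO, and at 4.02 and 2.87 RPKM in WT. Its direction thus differed between genotypes, at a log2 ratio of -0.70 in FXR KO (counting interval -1.08 to -0.32, from 96 and 158 reads) and 0.49 in WT (interval 0.22 to 0.75). With vehicle alone Srxn1 was 1.83-fold higher in FXR KO than in WT.

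Txnrd1, the cytosolic thioredoxin reductase, was at 4.62 and 4.66 RPKM with GW4064, against 4.50 and 4.26 RPKM with DMSO. Its fitted change was the smallest of the tested members after that of Keap1, at 0.08 on the log2 scale (95% interval -0.08 to 0.24, limma). In GRO-seq Txnrd1 was at 3.42 and 3.48 RPKM in FXR KO, with GW4064 and vehicle, and at 4.06 and 3.76 RPKM in WT. The Txnrd1 row covers 37.4 kb of a 63.8 kb gene and shares 1303 of its 37383 bases with Eid3.

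**Figure D3:**
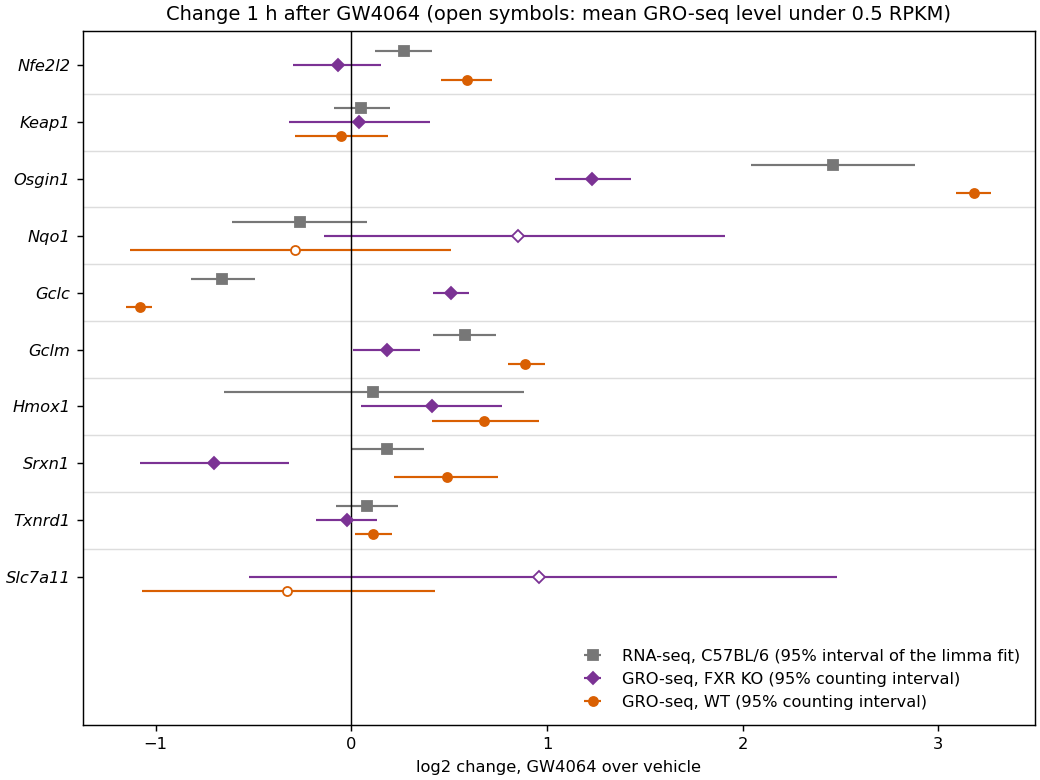
Log2 change of each member, GW4064 over vehicle, with squares for RNA-seq (95% interval of the limma fit), diamonds for GRO-seq in FXR KO and circles for GRO-seq in WT (95% counting intervals). Open symbols mark members under the filter on low values. Osgin1 lies to the right of 0 in all 3 comparisons, whereas Gclc lies at -0.66 in RNA-seq, 0.51 in FXR KO and -1.08 in WT.

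Counted together, 9 of the 10 members passed the filter of a mean of 0.5 RPKM in RNA-seq. Of these, 2 were called higher (Osgin1 and Gclm), against a background of 2.13% of all 11408 rows tested, and 1 was called lower (Gclc), against a background of 1.15%. The members were chosen with earlier results of these data known, so their counts are no test against the background. The same holds for the counts of the pathway list below. Both GW4064 libraries exceeded both DMSO libraries in 6 members, and the same held for 26% of all rows. Both were below in 2 members, and in 28.1% of all rows. The median log2 fold change of the 9 members was 0.11, beside a median of -0.00 over all rows. Osgin1 had the largest fold change among the members, and those of 6 members did not pass the test.

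In GRO-seq 8 of the 10 members were kept, Nqo1 and Slc7a11 being too low. Comparing GW4064 with vehicle in FXR KO, 1 member was at least 1.5-fold higher (Osgin1; 3.47% of all rows) and 1 was lower (Srxn1; 4.28% of all rows), with Gclc just short of the mark at 1.43-fold. In WT, 4 were at least 1.5-fold higher (Osgin1, Gclm, Hmox1 and Nfe2l2; 7.04% of all rows) and 1 was lower (Gclc; 8.82% of all rows), with Srxn1 just short of the mark at 1.40-fold. The members' median log2 ratio was 0.11 in FXR KO and 0.54 in WT, where the median over all rows lay at -0.0298 and -0.104. Relative to that WT median, the WT ratios were 3.28 for Osgin1, 1.00 for Gclm and -0.98 for Gclc on the log2 scale. With an added value of 1 RPKM, 2 members rather than 4 were past the mark in WT and 0 were lower in FXR KO, and centred on the median 5 were higher in WT, Srxn1 being the fifth.

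FXR KO was also set against WT within each treatment, and these comparisons share libraries with those above. With GW4064, 1 member was at least 1.5-fold higher in FXR KO (Gclc, 2.18-fold; 7.69% of all rows) and 3 were lower (Osgin1, Gclm and Nfe2l2; 9.23% of all rows). The lower members had log2 ratios of -2.43, -0.87 and -0.60. With vehicle, 2 were higher in FXR KO (Srxn1 and Hmox1; 6.55% of all rows) and 0 were lower (7.68% of all rows). With vehicle, Osgin1 and Gclc lay just short of the mark, at 0.714 and 0.72 of the WT level.

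RPKM values of the rows can be ordered within a library, but they are scaled to the whole row, introns included. The exon share differed between rows, from 8.57% for Gclc to 48% for Srxn1. In RNA-seq the order is therefore that of row values and does not rank the members by transcript level. Osgin1 had the highest level of the members in both GW4064 RNA-seq libraries, at least 5 times the next member. In the DMSO libraries its level was near that of Gclc, with 8.36 RPKM beside 8.33 RPKM for Gclc in replicate 1, and 6.39 RPKM beside 8.62 RPKM for Gclc in replicate 2. Srxn1, Gclm, Keap1, Nfe2l2 and Gclc followed in the GW4064 libraries between 7.72 and 5.21 RPKM, and Srxn1 and Gclm changed places between them. Nqo1 and Slc7a11 were the lowest in all 8 libraries.

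Among 77 other genes of the pathway, 66 passed the RNA-seq filter. Of these, 3 were called higher and 0 lower by limma, against 2.13% and 1.15% of all rows, and their median log2 fold change was 0.04. At an unadjusted p under 0.05, 9 were higher and 9 lower, 13.6% each, where 10.6% of all rows were higher and 10.6% lower, so the pathway list lay near the background. With limma-voom 6 were higher and 4 lower. The genes called higher were Maff, Mafg and Gsta4. Maff and Mafg encode small MAF proteins, the DNA-binding partners of NRF2. Maff was at 2.33 and 2.58 RPKM with GW4064, against 0.767 and 0.967 RPKM with DMSO, and rose by 1.41 on the log2 scale (standard error 0.13, adjusted p = 0.028, limma). Mafg was at 19.9 and 18.2 RPKM with GW4064, against 11.4 and 10.8 RPKM with DMSO, and rose by 0.77 (standard error 0.07, adjusted p = 0.03). Gsta4, a glutathione transferase that conjugates 4-hydroxynonenal, was at 2.32 and 2.22 RPKM with GW4064, against 1.10 and 1.23 RPKM with DMSO, and rose by 0.90 (standard error 0.08, adjusted p = 0.027). For each of these 3 genes the GW4064 libraries were clear of the DMSO libraries. All 3 calls were lost when any 1 library was left out, as were most or all calls of the whole table.

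No other gene of the pathway list was called in RNA-seq. Among the glutathione transferases, Gsta2 lay at 0.67 on the log2 scale (adjusted p = 0.074), Gsta3 at -0.87 (adjusted p = 0.088) and Gstm3 at 1.15 (adjusted p = 0.2). In the NRF2 turnover group, Sqstm1, the autophagy receptor that binds KEAP1, lay at 0.32 (adjusted p = 0.1) and Gsk3b, a kinase that promotes NRF2 degradation, at -0.27 (adjusted p = 0.16). Among enzymes of quinone, aldehyde and epoxide handling, Cbr1 lay at 0.55 (adjusted p = 0.16) and Ugdh at -0.33 (adjusted p = 0.091). Cat, catalase, was at -0.39 (adjusted p = 0.12) and Sod2, the mitochondrial superoxide dismutase, at 0.19 (adjusted p = 0.26). Chac1 and Chac2, which degrade glutathione, were at -0.65 and -0.31 (adjusted p = 0.43 and 0.19). Gpx1 and Gpx4, glutathione peroxidases, were at 0.15 and 0.25 (adjusted p = 0.34 and 0.25). The 12 thioredoxin, peroxiredoxin and sestrin genes had a median of 0.08, with Prdx1 at 0.17 and Prdx5 at 0.13. The 6 heme and iron genes had a median of 0.04, with Blvrb at -0.31 and Slc40a1 at 0.17. The 6 NADPH supply genes had a median of -0.01, with Me1 at -0.30 and Taldo1 at 0.07. The exporters Abcc2 and Abcc3 were at -0.01 and 0.02.

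**Figure D4:**
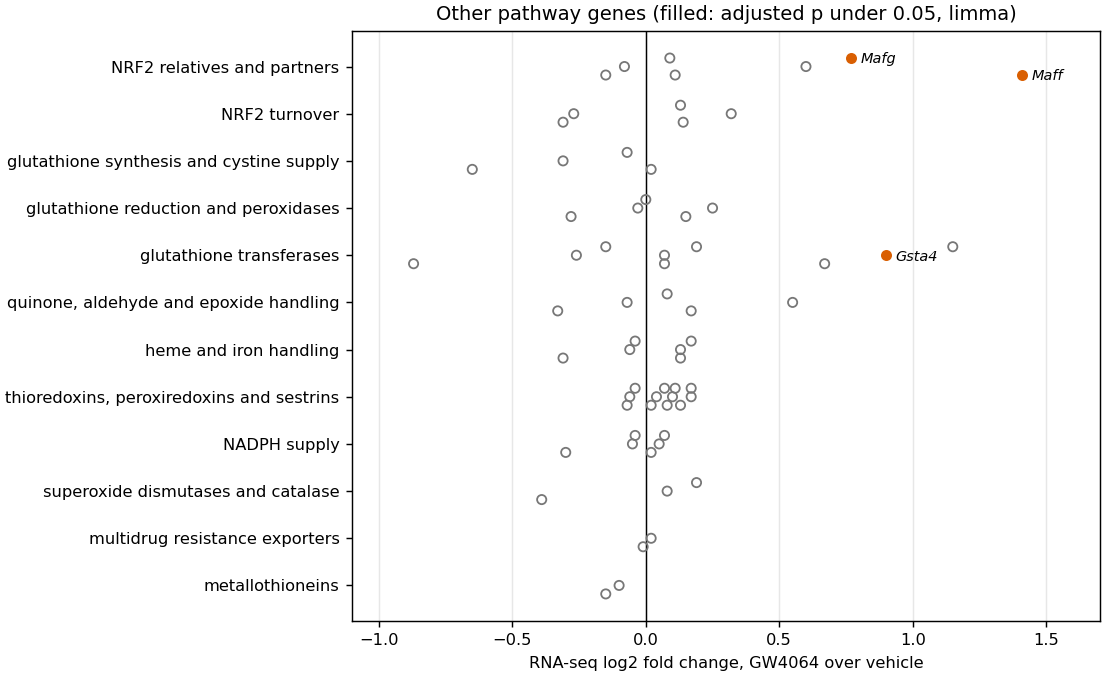
RNA-seq log2 fold change, GW4064 over vehicle, of the 66 pathway genes that passed the filter, 1 point per gene in a row for each role. The filled points are Maff, Mafg and Gsta4, at 1.41, 0.77 and 0.90, and most open points lie near 0.

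In GRO-seq 63 of the 77 pathway genes were kept. With GW4064 against vehicle, 4 were at least 1.5-fold higher and 2 lower in FXR KO (6.35% and 3.17% of those kept, against 3.47% and 4.28% of all rows, median log2 ratio 0.02). In WT 12 were higher and 3 lower (19% and 4.76%, against 7.04% and 8.82% of all rows, median 0.10). Maff, which had 0.924 RPKM with GW4064 and 1.02 RPKM with vehicle in FXR KO, and 1.74 and 0.449 RPKM in WT, had log2 ratios of -0.14 in FXR KO and 1.96 in WT. Those of Gsta4 were 0.04 and 1.5, those of Cbr1 0.04 and 1.55, and those of Mafg 0.14 and 0.70. All 4 were thus higher with GW4064 in the WT pair and within 1.5-fold in the FXR KO pair, with 1 library behind each value. Their vehicle levels were not alike in the genotypes. With vehicle, Maff was higher in FXR KO than in WT, at a log2 ratio of 1.18 (counting interval 0.65 to 1.71, from 56 and 68 reads). That ratio was 0.51 for Gsta4, -0.26 for Cbr1 (interval -0.69 to 0.14) and -0.56 for Mafg. Gstm3, at 2.23 RPKM with GW4064 and 0.604 RPKM with vehicle in FXR KO and at 3.05 and 0.644 RPKM in WT, was higher with GW4064 in both genotypes (log2 1.89 in FXR KO, from 62 and 17 reads, and 2.24 in WT). Gsta3 had log2 ratios of 0.33 in FXR KO and -1.64 in WT. These transferases have close paralogs, between which reads may not be separable. Between genotypes with GW4064, 8 were higher in FXR KO (12.7% of those kept, against 7.69% of all rows) and 5 lower (7.94%, against 9.23%). Between genotypes with vehicle, 11 were higher (17.5%, against 6.55%) and 2 lower (3.17%, against 7.68%). The WT vehicle library is the denominator both here and in the WT comparison of GW4064 with vehicle. A low value in that library raises both ratios, so the counts of these comparisons are not separate results.

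The rows whose pattern over the 8 libraries was most like that of Osgin1 were sought by Euclidean distance of log2 RPKM centred within each assay, among 9587 rows. The nearest were Kcnk5, a potassium channel gene (distance 0.573), Fam47e (0.935), Paxx, a factor of DNA end joining (1.03), Map3k13, a kinase of the JNK pathway (1.04), and Mkln1os, a noncoding RNA (1.10). Kcnk5 was at 17.4 and 15.5 RPKM with GW4064 against 4.46 and 3.69 RPKM with DMSO in RNA-seq. In GRO-seq it was at 4.36 against 1.93 RPKM in FXR KO and at 26.6 against 3.48 RPKM in WT. The log2 ratio of GW4064 to vehicle for Kcnk5 was 1.18 in FXR KO and 2.94 in WT, values that the choice by distance had used. The log2 ratios in FXR KO were 1.14 for Fam47e and 1.12 for Paxx, but 0.60 for Mkln1os and -0.15 for Map3k13. In WT the ratios of Mkln1os and Map3k13 were 2.53 and 2.82. The choice by distance had used the values of all these rows too. Of the members, Gclm was the nearest to Osgin1 at place 241, Nfe2l2 followed at place 624, and Gclc was the farthest at place 9383.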

How the data were processed

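Liver RNA was measured by RNA-seq in 4 libraries and nascent RNA by GRO-seq in 4 libraries. The authors mapped reads to mm10 with STAR (2.7.3a in the submitters' processing notes, which also name bcl2fastq and FastQC), and with HOMER made the deposited RPKM values per gene row, introns included. Strand use in counting is not given in the sources used here. Read numbers were rebuilt from RPKM, row length and library total, and came out whole (tolerance 0.15) for 100% of the 641 to 770 low values tested in each library.

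RNA-seq rows with a mean of at least 0.5 RPKM were compared on log2(RPKM + 0.1), a scale that understates the change of low genes, with limma (eBayes, trend=TRUE), treatment as the only term, and Benjamini-Hochberg adjustment over all 11408 rows (threshold 0.05). GRO-seq has 1 library per group, so no test was made. Ratios of RPKM were counted past 1.5-fold for rows whose GRO-seq mean reached 0.5 RPKM and where either library had 20 reads or more, with 95% exact binomial intervals of the reads. PCR copies are not independent molecules, so these cover counting error only.

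The members and the pathway list were chosen with earlier results of these data known. Named are all members, the pathway genes called in RNA-seq and the 2 of each role with the smallest p, the 5 rows nearest to Osgin1 (rows of at least 300 bases), and Abcb11, Nr0b2 and Nr1h4 as checks. Necab2, Osgin2, Gsta3, Gstm3, Eid3 and Mir5098 were added after their values were seen. Replicate numbers did not pair the samples. The correlation of the deviations of same-numbered libraries from their group means was -0.0215. Alternatives were other added values, filters, scalings, eBayes settings, a replicate block, limma-voom, longer rows, a 2-fold mark and each library left out. Tools were limma 3.58.1 and statmod 1.5.0 under R 4.3.3, and matplotlib 3.10.9, scipy 1.17.1, pandas 2.3.3 and numpy 2.4.6 under Python 3.11.15. RefSeq windows and GENCODE M21 transcripts were used for annotation.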

Additional observations from a re-analysis of the deposited data

Results flagged for a closer look

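In GRO-seq, 2 of 8 members and 7 of 63 other pathway genes (11.1%) had GW4064-to-vehicle ratios on opposite sides of 1 in the genotypes, each with a counting interval that left out 1, as did 7.96% of all 9191 rows kept in both pairs. Gclc had a log2 ratio of 0.51 in FXR KO and -1.08 in WT. Srxn1 had one of -0.70 in FXR KO and 0.49 in WT. The same order as for Gclc was seen in Gsk3b (0.22 in FXR KO, -0.42 in WT), Slc40a1 (0.36 and -0.21), Gsta3 (0.33 and -1.64) and Me1 (0.57 and -0.38). The order of Srxn1 was seen in Sqstm1 (-0.33 in FXR KO and 0.71 in WT) and Gpx1 (-0.25 and 0.60). With 1 library per genotype and treatment, none of these differences was tested.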

How the results depend on the processing

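The RNA-seq calls changed with the removal of the filter, with a block and with each library left out. A filter of 0.1 RPKM gave 2 members higher, 1 lower and 3 pathway genes higher, as with 0.5 RPKM. Without a filter, 0 members were higher, 0 lower and 0 pathway genes higher, with Osgin1 at 2.46 on the log2 scale (adjusted p = 0.084, limma), and the cause was not tested. With the replicate number as a block, which these numbers do not justify as a pairing, the same counts were 0, 0 and 0, with Osgin1 at 2.46 (adjusted p = 0.073). The block left 0 calls over the whole table, with 2327 rows at an unadjusted p under 0.05. With 1 library left out, 0 to 1 members were higher, 0 were lower and 0 pathway genes were higher, and the log2 fold change of Osgin1 was 2.27 to 2.65. An arm then held 1 library, assumed to vary like the other group, and most or all calls of the whole table were lost. The 1 member called higher without DMSO replicate 1 was Osgin1. Pathway genes called lower numbered 1 with quantile normalization, 1 with rows of at least 300 bases and 4 with limma-voom, which called 6 higher. Over the whole table limma called 243 rows higher and 131 lower, limma-voom 522 and 481, and limma with rows of at least 300 bases 424 and 310. Keap1 turned to -0.00 with quantile normalization, and Hmox1 lay between -0.26 and 0.48 with 1 library left out, the lowest without DMSO replicate 2.

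In GRO-seq, 3 members rather than 4 were higher in WT with an added 0.1 RPKM, where Nfe2l2 was at 0.58, and 5 with median centring. An added 1 RPKM gave 0 members lower in FXR KO, 2 higher in WT and, between genotypes with vehicle, 1 higher. A 2-fold mark gave 0 lower in FXR KO, 1 higher in WT, 0 higher between genotypes with vehicle and 1 lower with GW4064. A filter of 0.1 RPKM gave 2 higher in FXR KO and 2 higher between genotypes with GW4064. Members past the 1.5-fold mark could not change direction under these alternatives. An added value, a filter or another mark keeps the sign of a log2 ratio, and the largest median used for centring was -0.104. Depth limits Nqo1 and Slc7a11 in GRO-seq, and the FXR KO libraries are the shallowest.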

Other observations

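The metallothioneins, metal-binding and oxidant-scavenging proteins, differed between the assays. In RNA-seq Mt1 was at 23.7 and 22.5 RPKM with GW4064, against 28.8 and 21.4 RPKM with DMSO, and Mt2 at 15.2 and 14.2 RPKM, against 19.2 and 14.0 RPKM, so the groups overlapped for both genes. In GRO-seq Mt1 was at 47.8 RPKM with GW4064 and 34.6 RPKM with vehicle in FXR KO, and at 39.4 and 14.9 RPKM in WT. Mt2 was at 37.0 and 21.3 RPKM in FXR KO, and at 39.7 and 11.2 RPKM in WT. The log2 ratios of Mt1 and Mt2 were 0.47 and 0.80 in FXR KO and 1.40 and 1.82 in WT, and the vehicle library of WT was the lowest of the 4 for both genes.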
